A study of Mus musculus with 2 samples.

Results

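Intracisternal A particle (IAP) long terminal repeats (LTRs) of the IAPLTR2 group lie at 4 mouse genes, Rab6b, Pink1, Bmf and Sema6d. They were taken as all IAP LTRs and covered CpG positions in 4 fixed mm10 intervals with 1 kb on either side. The intervals held 6 LTRs, of 13057 IAP LTR copies found in the genome and 8138 measured in both libraries. The data were 1 sperm library and 1 tail library made from the same adult male C57BL/6J mouse, with no genotype change and no treatment. DNA was bisulfite-treated, copied from tagged random primers and amplified with a primer inside the IAP LTR (TEPBAT), so that each product joins part of one LTR to the sequence beside it. The sperm file held 95744413 calls over 754507 positions and the tail file 55366653 calls over 959191 positions. A call is one read of one CpG as methylated or unmethylated, and a methylation level is the fraction of methylated calls, from 0 to 1.

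With 1 library per tissue there was no replicate, so every test below compares these libraries and not the tissues. The reads carried no molecular identifiers, so PCR copies of one molecule were counted as separate calls, and CpGs on one read are not independent of each other, so intervals and p-values cover counting error only. Tail DNA comes from a mixture of cell types. A level between 0 and 1 does not tell apart fewer methylated cells from fewer methylated alleles. Whether the methylation of these LTRs varies between mice could not be measured in 1 animal. Promoters used to check the identity of the DNA were thinly covered, with 1 of 136 calls methylated in sperm over 3 windows and 23 of 153 in tail over 4 windows. Only the Zrsr1 window was in both sets, with 1 of 87 calls methylated in sperm and 0 of 52 in tail. In tail, 15 of the 23 methylated calls came from Inpp5f, which had 0 calls in sperm. The sums therefore do not compare the libraries at the same genes, and the identity of the DNA could not be checked this way.

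IAP elements are endogenous retroviruses whose LTRs carry a promoter, and CpG methylation keeps most of them silent in somatic cells. A few copies escape this and are methylated to a different degree in genetically identical mice, and such copies can drive transcripts of a neighbouring gene. Rab6b encodes a small GTPase of membrane traffic around the Golgi, abundant in brain. Pink1 encodes a kinase that marks damaged mitochondria for removal. Bmf encodes a BH3-only protein that promotes apoptosis, and Sema6d encodes a transmembrane semaphorin of axon guidance and heart development.

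The copies at Rab6b and Pink1 were solo LTRs, which have lost the internal part of the element. The Rab6b copy (chr9:103108602-103109112, + strand, 511 bp, 29 CpGs) was intergenic, 2675 bp upstream of the start of Rab6b and on the same strand. The Pink1 copy (chr4:138327386-138327856, + strand, 471 bp, 30 CpGs) was intergenic, 1079 bp upstream of the start of Pink1, a gene on the other strand. The Bmf element (chr2:118554766-118558375, + strand, 3610 bp) was intergenic, 5079 bp upstream of the start of Bmf, again on the other strand, and had a 5′ LTR with 30 CpGs and a 3′ LTR with 31, each of 476 bp. The Sema6d element (chr2:124350089-124353361, - strand, 3273 bp) lay in an intron of Sema6d, against the direction of the gene and 260120 bp from its start, with 2 LTRs of 364 bp and 18 CpGs each. The Rab6b, Pink1 and Bmf LTRs were of subfamily IAPLTR2, while both Sema6d LTRs were nearest to IAPLTR2a2.

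The reads reached only the outer bases of each LTR, and these bases are shown because they carry the measured CpGs. Each line runs 5′ to 3′ in the direction of the LTR in GRCm38 (mm10), and capitals mark the CpGs with at least 20 calls in both libraries. Shown first is the start of the Rab6b, Pink1, Bmf 5′ and Sema6d 3′ LTRs, with 120 bases of flank before it for Rab6b, Pink1 and Bmf.
Rab6b (chr9:103108482-103108711, + strand): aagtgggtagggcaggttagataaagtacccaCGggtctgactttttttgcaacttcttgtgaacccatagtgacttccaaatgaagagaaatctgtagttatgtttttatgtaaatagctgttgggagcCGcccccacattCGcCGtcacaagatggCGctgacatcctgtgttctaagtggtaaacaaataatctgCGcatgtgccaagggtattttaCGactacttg
Pink1 (chr4:138327266-138327495, + strand): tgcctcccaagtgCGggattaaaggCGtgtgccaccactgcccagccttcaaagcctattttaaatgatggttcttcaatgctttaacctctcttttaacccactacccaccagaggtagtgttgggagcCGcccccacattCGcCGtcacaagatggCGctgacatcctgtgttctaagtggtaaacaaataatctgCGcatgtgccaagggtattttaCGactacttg
Bmf 5′ LTR (chr2:118554646-118554875, + strand): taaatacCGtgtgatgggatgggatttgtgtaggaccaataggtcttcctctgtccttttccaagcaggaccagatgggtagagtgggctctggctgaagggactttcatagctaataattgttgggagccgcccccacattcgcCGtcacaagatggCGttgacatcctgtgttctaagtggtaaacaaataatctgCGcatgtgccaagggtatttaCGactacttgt
Sema6d 3′ LTR (chr2:124350343-124350452, - strand): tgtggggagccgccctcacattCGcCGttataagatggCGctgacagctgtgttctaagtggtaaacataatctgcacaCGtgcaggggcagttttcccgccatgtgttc
The second set gives the last 70 bases of the Rab6b, Pink1, Bmf 3′ and Sema6d 3′ LTRs, with the flank after them for Rab6b and Pink1.
Rab6b (chr9:103109043-103109232, + strand): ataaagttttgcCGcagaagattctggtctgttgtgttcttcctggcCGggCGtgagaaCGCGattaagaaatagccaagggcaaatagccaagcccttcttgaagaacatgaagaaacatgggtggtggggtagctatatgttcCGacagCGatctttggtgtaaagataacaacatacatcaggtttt
Pink1 (chr4:138327787-138327946, + strand): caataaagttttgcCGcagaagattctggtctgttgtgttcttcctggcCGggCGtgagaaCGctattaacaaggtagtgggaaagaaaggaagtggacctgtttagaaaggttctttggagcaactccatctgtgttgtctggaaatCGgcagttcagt
Bmf 3′ LTR (chr2:118558306-118558375, + strand): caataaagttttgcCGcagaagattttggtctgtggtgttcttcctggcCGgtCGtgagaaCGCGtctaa
Sema6d 3′ LTR (chr2:124350089-124350158, - strand): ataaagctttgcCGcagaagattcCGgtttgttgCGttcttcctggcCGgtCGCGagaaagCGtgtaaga
The start of the Rab6b, Pink1 and Bmf LTRs held CpGs at matching places, the last of them 1 base earlier in Bmf, so that one CpG could be followed over several copies.

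Over whole LTRs, the Rab6b and Pink1 copies were 83.6% identical and the Pink1 and Bmf 5′ copies 90.4%. The Sema6d 3′ LTR was 60.0% identical to Rab6b and 64.8% to Pink1. The LTR pair of the Bmf element differed by 1 mismatch in 476 aligned bases and that of the Sema6d element by 1 in 364. The 19-base primer that reads towards the upstream flank matched bases 107 to 125 of the Rab6b and Pink1 LTRs with 1 mismatch after bisulfite conversion. The 30-base primer that reads towards the downstream flank matched bases 422 to 451 at Rab6b and 384 to 413 at Pink1, also with 1 mismatch. The stretch between the primers was therefore hardly read. The 6-base GC box GGGCGG, searched on both strands, occurred 2 times in the Rab6b LTR and 1 time in each of the others. It was found at least 1 time in 84.6% of 4308 IAPLTR2-group copies and in 97.1% of 69 copies of like length to Rab6b. The CTCF core strings AGGGGGC and AGGTGGC, searched on both strands, had 0 matches in these 6 LTRs, and they occurred in 2.97% and 0.302% of IAPLTR2-group copies. Among copies of like length, AGGGGGC occurred in 10.1% (Rab6b), 9.42% (Pink1), 9.04% (Bmf) and 0.541% (Sema6d).

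Reads of the upstream side covered the antisense strand of the LTR, with 0.54% of sperm calls and 0.27% of tail calls on the sense strand, and reads of the downstream side lay on the sense strand in 100% of calls. The start and end of an LTR were thus measured by different products and strands. Of 177 positions covered in either library at the 4 loci, 101 had at least 20 calls in both.

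In these 101 positions, 35 were called lower in tail (34.7%), 9 were called lower in sperm and 57 had no call. A call required an adjusted p under 0.05 by Fisher's exact test (two-sided, Benjamini-Hochberg over 89873 positions) and a difference of at least 0.2. Over all tested positions of both files, 7.35% were called lower in tail and 12.3% lower in sperm. The 4 loci differed from each other in these counts. Rab6b had 12 of 16 positions called lower in tail (75.0%) and 0 called lower in sperm. Pink1 had 9 of 15 lower in tail (60.0%) and 1 lower in sperm. Sema6d had 11 of 37 lower in tail (29.7%) and 5 lower in sperm. Bmf had 3 of 33 in each direction, and its share lower in tail, 9.09%, lay near the background.

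**Figure D1:**
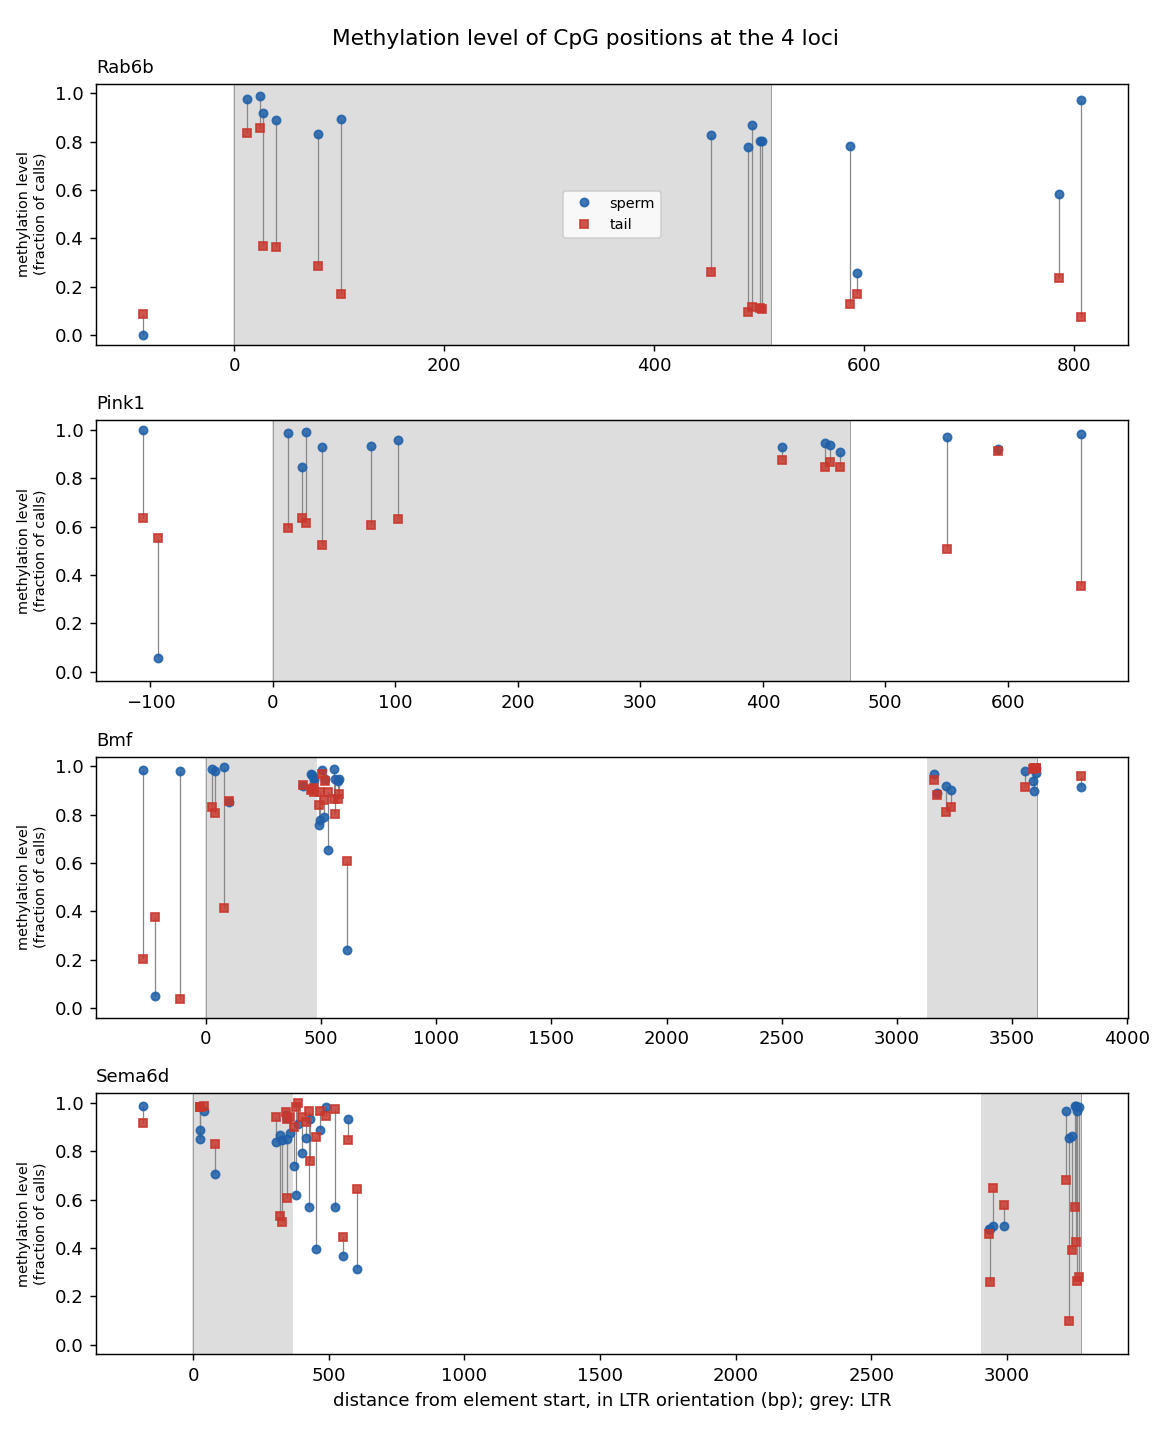
Methylation level (y axis, fraction of calls) of each CpG position with at least 20 calls in both libraries against distance from the start of the element in LTR orientation (x axis, bp), with grey bands for LTRs and a line joining the sperm (circle) and tail (square) level of a position. At Rab6b the 5 positions at the end of the LTR lie at 0.779 to 0.867 in sperm and 0.094 to 0.260 in tail, while at Bmf most positions lie close together.

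Whole LTRs were compared next. The level of an LTR was the mean over its covered positions, and 3 of the 6 LTRs were called lower in tail (Rab6b, Pink1 and the Bmf 5′ LTR) and 0 lower in sperm. Among all 8138 LTRs, 1.88% were called lower in tail and 6.52% lower in sperm. Within subfamily IAPLTR2, whose median level was 0.872 in sperm and 0.891 in tail, 30 of 1271 LTRs (2.36%) were called lower in tail. Since a position with 1 call weighs as much in this mean as a deeply covered one, the same mean was also taken over positions with at least 20 calls in both libraries, a setting added after the data were seen. The Sema6d 3′ LTR, not called by the first mean, was called lower in tail by the second, and the Bmf 5′ LTR was called only by the first. Within IAPLTR2a2, 39 of 1424 LTRs (2.74%) were called lower in tail by the first mean and 10.3% lower in sperm. By the second mean, 20 of 4125 IAPLTR2-group LTRs (0.485%) had a difference of at least 0.355, that of the Sema6d 3′ LTR. The share of all LTRs called by the second mean is not given here.

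**Figure D2:**
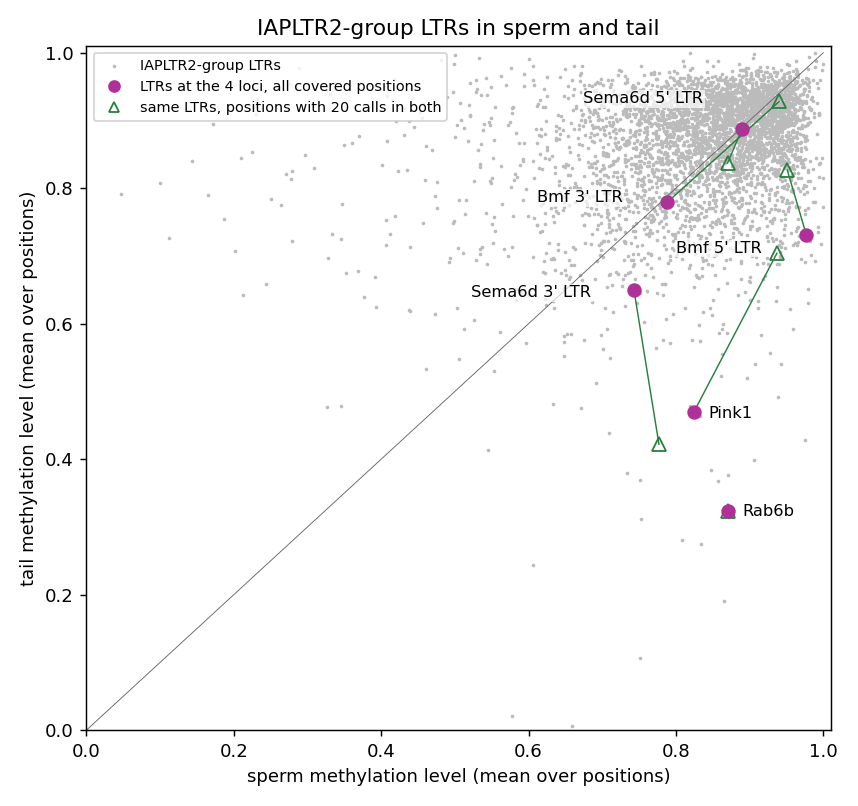
Tail level (y axis) against sperm level (x axis) of 4234 IAPLTR2-group LTRs (grey points, mean over covered positions), with the 6 LTRs of the 4 loci as filled circles joined to triangles that use only positions with at least 20 calls in both libraries. Rab6b stays at 0.871 in sperm and 0.324 in tail under both, whereas Pink1 moves in tail from 0.469 to 0.704 and the Sema6d 3′ LTR from 0.650 to 0.422.

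The Rab6b LTR was the least methylated of the 6 in tail, by the mean over positions and by summed calls. In sperm it was the lowest by summed calls and not by the mean. It had 5185 methylated calls of 6179 in sperm and 1620 of 7885 in tail, over 11 positions in each. The mean level was 0.871 in sperm and 0.324 in tail, a difference of 0.546, and all 11 positions were lower in tail. Summed calls gave 0.839 (exact 95% interval 0.830 to 0.848) in sperm and 0.205 (0.197 to 0.215) in tail. Taken over positions with at least 20 calls in both, 0.478% of IAPLTR2 LTRs (6 of 1254, itself included) had a tail level at or under that of Rab6b, while 41.6% lay at or under its sperm level. A difference of 0.546 or more was found in 9 of 4125 IAPLTR2-group LTRs (0.218%).

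Along the Rab6b LTR the tail level fell from the first bases inwards and was lowest at the other end. At bases 12 and 24, counted from 1 at the start of the LTR, sperm levels were 0.977 and 0.988 and tail levels 0.837 and 0.857, and neither was called. At base 27 the sperm level was 0.920 (369 of 401 calls) and the tail level 0.367 (186 of 507). Bases 40, 80 and 102 followed with tail levels of 0.364, 0.287 and 0.168, against 0.888, 0.831 and 0.892 in sperm. The step between bases 24 and 27 came with a step in depth, from 91 to 507 tail calls and from 85 to 401 sperm calls, and the part of depth in it was not tested. Towards the end of the LTR, base 454 had 588 of 710 methylated calls in sperm and 357 of 1374 in tail, or 0.828 and 0.260. The last 4 covered CpGs, at bases 489, 493, 501 and 503, had tail levels of 0.094, 0.115, 0.110 and 0.106 and sperm levels of 0.779, 0.867, 0.804 and 0.803. Every tail value at this end lay below every sperm value. The mean difference at the end of the LTR was 0.679, reached or passed in 7 of 3718 IAPLTR2-group LTRs (0.188%), and that at the start was 0.436, reached or passed in 17 of 2876 (0.591%).

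The low tail level at Rab6b did not stop at the LTR boundary on the downstream side, which faces the gene. The CpG at base 587, in the flank 76 bases past the end of the LTR, had 18 of 23 calls methylated in sperm (0.783) and 7 of 55 in tail (0.127). Base 786 stood at 0.582 in sperm against 0.236 in tail, and base 807 at 0.971 (33 of 34 calls) against 0.074 (36 of 489). Base 593 was low in both, with 0.256 in sperm and 0.170 in tail, and was not called. On the upstream side the only tested CpG, 87 bases before the LTR, had 0 of 169 calls methylated in sperm, with an exact 95% upper bound of 0.022, and 10 of 118 in tail (0.085). Both libraries were thus low there. Over the whole IAPLTR2 group the tail mean was lower by at least 0.2 in 14.8% of 1462 downstream flanks and 16.5% of 873 upstream flanks. Sperm was lower by as much in 13.7% and 18.2%, so such differences in flanks went both ways. Tail was lower by at least 0.2 in 3.2% of 2876 LTR starts and 1.51% of 3718 LTR ends, and sperm in 7.82% and 6.24%. The part of depth in these shares was not tested. The mean difference of the Rab6b downstream flank, 0.496, was reached or passed in 38 of 1462 flanks (2.6%).

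At Pink1 the tail level was lower at the start of the LTR and close to that of sperm at its end. The 6 tested CpGs at the start, at the same bases as in Rab6b, had sperm levels of 0.985, 0.848, 0.993, 0.930, 0.932 and 0.959 at bases 12, 24, 27, 40, 80 and 102. Their tail levels were 0.592, 0.634, 0.614, 0.524, 0.605 and 0.632. All 6 were called lower in tail, and the tail values lay within a narrow band, with a mean of 0.600 and a standard deviation over positions of 0.041. At the end of the LTR the 4 tested CpGs had 17589 to 19330 sperm calls and 5630 to 7791 tail calls. Sperm levels there were 0.909 to 0.944 and tail levels 0.845 to 0.877. None of the 4 was called, since each difference, 0.053 to 0.097, stayed under 0.2. Summed over the end of the LTR the level was 0.930 (exact 95% interval 0.928 to 0.932) in sperm and 0.860 (0.856 to 0.864) in tail.

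The call for the whole Pink1 LTR therefore depended on how positions were weighed. Each library covered 15 positions, not all of them the same, with a mean of 0.824 in sperm and 0.469 in tail, and the LTR was called lower in tail. Positions with 0 methylated of 1 or 2 calls, 5 in tail and 2 in sperm, weighed fully in these means. Summed calls, which are mostly from the end of the LTR, gave 0.931 and 0.834 and no call. Well-covered positions (at least 20 calls in both libraries) had means of 0.937 and 0.704, a difference of 0.233, and the call stood. By that mean 2.07% of IAPLTR2 LTRs (26 of 1254) had a tail level at or under 0.704. The gap between the end and the start of the LTR in tail, 0.258, was reached or passed in 124 of 2469 IAPLTR2-group LTRs (5.02%), where the median gap was 0.027.

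Downstream of the Pink1 LTR, on the side away from the gene start, 2 of 3 tested CpGs were lower in tail. Base 550 had 313 of 323 calls methylated in sperm (0.969) and 27 of 53 in tail (0.509), and base 660 had 1062 of 1082 (0.982) and 40 of 113 (0.354). Between them, base 592 stood at 0.921 and 0.914. Upstream, neighbouring CpGs 12 bases apart went opposite ways. The CpG 106 bases before the LTR had 127 of 127 calls methylated in sperm and 350 of 552 in tail (0.634). The CpG 94 bases before it had 7 of 124 in sperm (0.056) and 222 of 402 in tail (0.552), and it was the single position of the locus called lower in sperm. Both stood near the level of the LTR start in tail and at opposite ends of the scale in sperm.

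**Figure D3:**
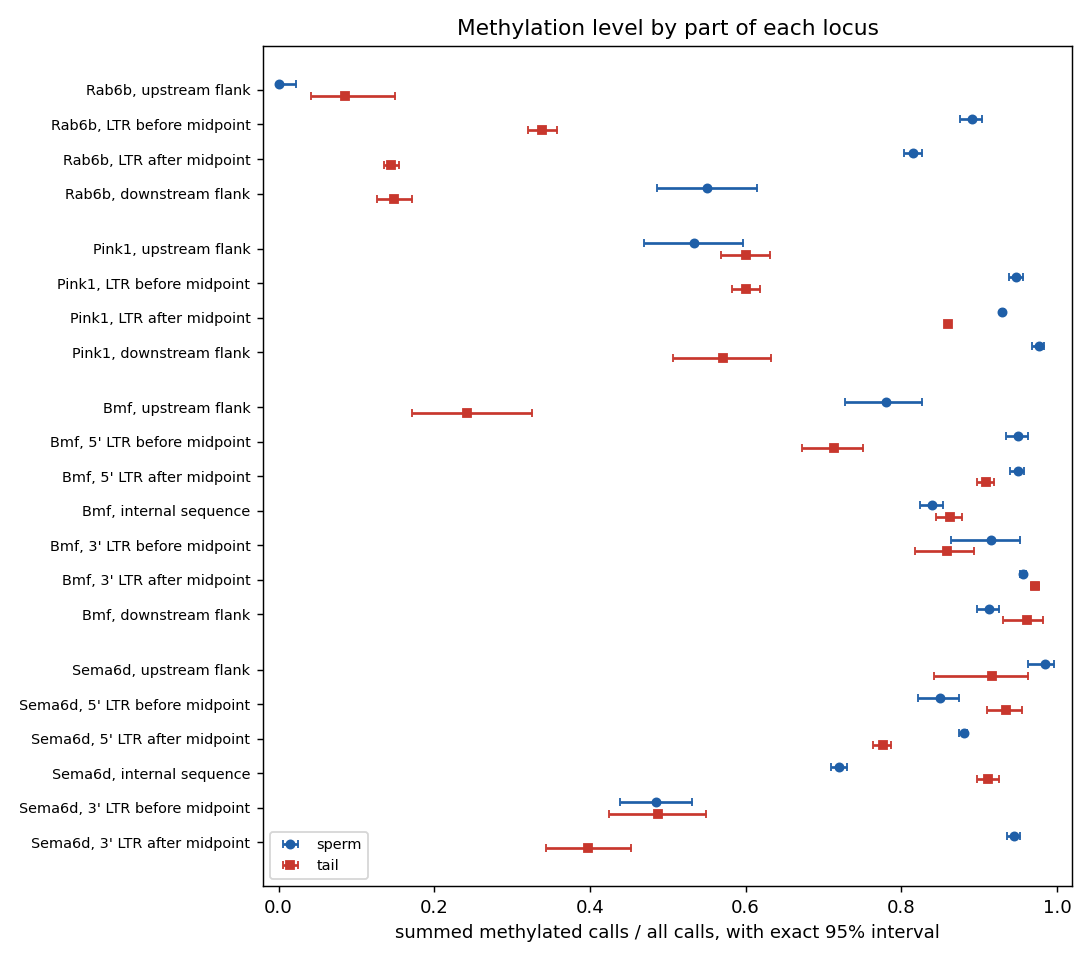
Methylation level by part of each locus (x axis, summed methylated calls over all calls at positions with at least 20 calls in both libraries; bars, exact 95% interval) in sperm (circles) and tail (squares). Rab6b is low in tail on both sides of the LTR midpoint (0.339 and 0.145), Pink1 before it (0.600), the Sema6d 3′ LTR after it (0.398), and the Bmf 3′ LTR is high in both libraries.

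The LTRs of the Bmf element were highly methylated in both libraries apart from the start of the 5′ LTR in tail. The end of its 5′ LTR had sperm levels of 0.918 to 0.967 and tail levels of 0.895 to 0.922 over 5 CpGs, and 0 of these were called. In the start of the 5′ LTR a single CpG was called. It lay at base 80, with 248 of 249 calls methylated in sperm (0.996) and 64 of 155 in tail (0.413). Its neighbours at bases 40 and 101 stood at 0.979 and 0.851 in sperm and at 0.806 and 0.856 in tail. The whole 5′ LTR had means of 0.977 and 0.731 and was called lower in tail, but over well-covered positions its means were 0.951 and 0.827 and the call was lost.

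The 3′ LTR of Bmf, a near copy of the 5′ LTR, was not called by either mean. Its means over all covered positions were 0.788 in sperm and 0.779 in tail, and over well-covered positions 0.940 and 0.928. Its summed calls gave 0.955 in sperm and 0.963 in tail (Fisher's exact test on these calls, adjusted p = 0.062). The last 4 CpGs of this LTR had tail levels of 0.989 to 0.993 and sperm levels of 0.896 to 0.992. Just outside, base 3800 of the locus stood at 0.913 in sperm and 0.962 in tail. The called positions outside the element lay on the upstream side, which faces the gene. Of the 3 tested CpGs upstream of the 5′ LTR, the one 273 bases before it had 64 of 65 calls methylated in sperm (0.985) and 10 of 49 in tail (0.204). The one 112 bases before it had 160 of 163 (0.982) and 1 of 27 (0.037). The one between, 221 bases before the LTR, went the other way, with 3 of 63 in sperm (0.048) and 21 of 56 in tail (0.375). The mean difference of this flank, 0.466, was reached or passed in 4.12% of 873 upstream flanks of IAPLTR2-group LTRs.

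Inside the Bmf element, 11 CpGs within the first internal bases after the 5′ LTR had a mean of 0.816 in sperm and 0.856 in tail. Base 529 (0.654 in sperm, 0.893 in tail) and base 611 (0.241 and 0.610) were called lower in sperm. The other 9 lay between 0.756 and 0.991 in sperm and between 0.802 and 0.970 in tail and were not called.

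At Sema6d the 3′ LTR carried the lower tail levels. All 7 tested CpGs at its end were called lower in tail. Sperm levels at bases 307, 319, 329, 342, 346, 348 and 356 were 0.967, 0.855, 0.862, 0.985, 0.988, 0.967 and 0.984. The tail levels at the same bases were 0.679, 0.096, 0.391, 0.571, 0.424, 0.265 and 0.280. No tail value reached the lowest sperm value. These tail levels rest on 25 to 81 calls each, 327 in all, and the summed level was 0.398 (exact 95% interval 0.344 to 0.453) against 0.945 (0.936 to 0.953) in sperm. The mean difference, 0.557, was reached or passed in 13 of 3718 IAPLTR2-group LTRs (0.350%).

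The start of the same 3′ LTR, which lies next to the internal sequence, was intermediate in both libraries. In sperm, bases 24, 27, 40 and 81 stood at 0.479, 0.479, 0.492 and 0.491, with 57 to 58 methylated calls of 116 to 119 at each. In tail they stood at 0.459, 0.258, 0.647 and 0.576, and base 27 alone was called lower in tail. The sperm counts at the 4 CpGs were thus nearly equal, and how many DNA molecules they came from is not known. Only 5.29% of 2876 IAPLTR2-group LTRs had a sperm level at or under 0.485 at the start.

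The 5′ LTR of Sema6d, 99.7% identical to the 3′ LTR, was methylated in both libraries apart from 3 CpGs. Bases 319, 329 and 348 had tail levels of 0.532, 0.506 and 0.606 and sperm levels of 0.865, 0.846 and 0.850, and all 3 were called lower in tail. The CpGs among them, at bases 342 and 346, stood at 0.963 and 0.932 in tail, and bases 307 and 356 at 0.942 and 0.943. Unlike the band at Pink1, the lower tail levels here alternated with high ones over a few bases and on 679 to 897 calls. At the start of this LTR the tail levels were 0.829 to 0.985 and the sperm levels 0.705 to 0.968, and 0 of 4 were called. By the mean over all positions the 5′ LTR stood at 0.890 and 0.888 and the 3′ LTR at 0.743 and 0.650, and neither was called. Over well-covered positions the 3′ LTR stood at 0.777 and 0.422, with 12 of 1349 IAPLTR2a2 LTRs (0.890%) at or under that tail level, and was called, while the 5′ LTR stood at 0.870 and 0.837 and was not.

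All positions of the Sema6d locus called lower in sperm lay in the internal sequence of the element. Of 14 tested CpGs after the 5′ LTR, 5 were called lower in sperm, at bases 380, 428, 452, 522 and 603 of the element. Over all tested positions of both files 12.3% were called lower in sperm, and internal sequences of other IAP elements were not compared as a group. Their sperm levels were 0.618, 0.570, 0.394, 0.568 and 0.314, and their tail levels 0.982, 0.966, 0.857, 0.975 and 0.645. The summed level of the internal CpGs was 0.720 (exact 95% interval 0.710 to 0.730) in sperm and 0.912 (0.897 to 0.925) in tail. The upstream flank had 1 tested CpG, 184 bases before the element, with 266 of 270 calls methylated in sperm (0.985) and 88 of 96 in tail (0.917), and the downstream flank had none.

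The CpGs at bases 27 and 40 near the start could be followed over all 6 LTRs, though the starts of the Bmf 3′ and Sema6d 5′ LTRs are not printed above. At base 27 the tail level ran from 0.258 (Sema6d 3′ LTR) through 0.367 (Rab6b), 0.614 (Pink1), 0.830 (Bmf 5′ LTR) and 0.942 (Bmf 3′ LTR) to 0.983 (Sema6d 5′ LTR). Sperm levels at that CpG were 0.887 to 0.993 in 5 of the LTRs and 0.479 in the Sema6d 3′ LTR. At base 40 the tail order was Rab6b (0.364), Pink1 (0.524), Sema6d 3′ LTR (0.647), Bmf 5′ LTR (0.806), Bmf 3′ LTR (0.883) and Sema6d 5′ LTR (0.985). At base 80, a CpG that the Sema6d LTRs lack, it was Rab6b (0.287), Bmf 5′ LTR (0.413), Pink1 (0.605) and Bmf 3′ LTR (0.811). The Sema6d CpG at base 81 lies at another place of the sequence. Its tail level was 0.576 in the 3′ LTR and 0.829 in the 5′ LTR. Among the LTRs compared, Rab6b was the lowest in tail at bases 40 and 80. The Bmf 3′ and Sema6d 5′ LTRs were the highest at bases 27 and 40, and the Bmf 3′ LTR at base 80. Differences between LTRs at a CpG were not tested.

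The genome copies most like each LTR in sequence were then measured, 10 for each. The relatives of the Rab6b LTR were 84.1% to 90.2% identical to it and had tail levels of 0.735 to 0.937, so that 0 of 10 lay at or under its 0.324. The nearest one, a 5′ LTR on chromosome 17, stood at 0.932 in sperm and 0.929 in tail. The relatives of the Pink1 LTR were 98.3% to 99.2% identical and had tail levels of 0.738 to 0.954, again with 0 of 10 at or under its 0.469. Over positions with at least 20 calls in both, the Pink1 tail level was 0.704 and that of its relatives 0.820 to 0.964. By summed calls it was 0.834 against 0.791 to 0.965, with 1 of 10 at or under it. The nearest, a solo LTR on chromosome 8 that was 26907 bp from Il15, stood at 0.923 in sperm and 0.820 in tail. In sperm, the Rab6b and Pink1 LTRs lay within the range of their relatives (0.817 to 0.932 and 0.676 to 0.956). The relatives of the Sema6d 3′ LTR, which include the 5′ LTR of the same element, had tail levels of 0.768 to 0.953, all above its 0.650. Those of the Bmf 5′ LTR, which include the 3′ LTR of that element, had tail levels of 0.767 to 0.974, all above its 0.731. By contrast, 3 of the 10 relatives of the Bmf 3′ LTR and 5 of the 10 of the Sema6d 5′ LTR lay at or under the level of that LTR. Each of these counts includes the other LTR of the same element.

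**Figure D4:**
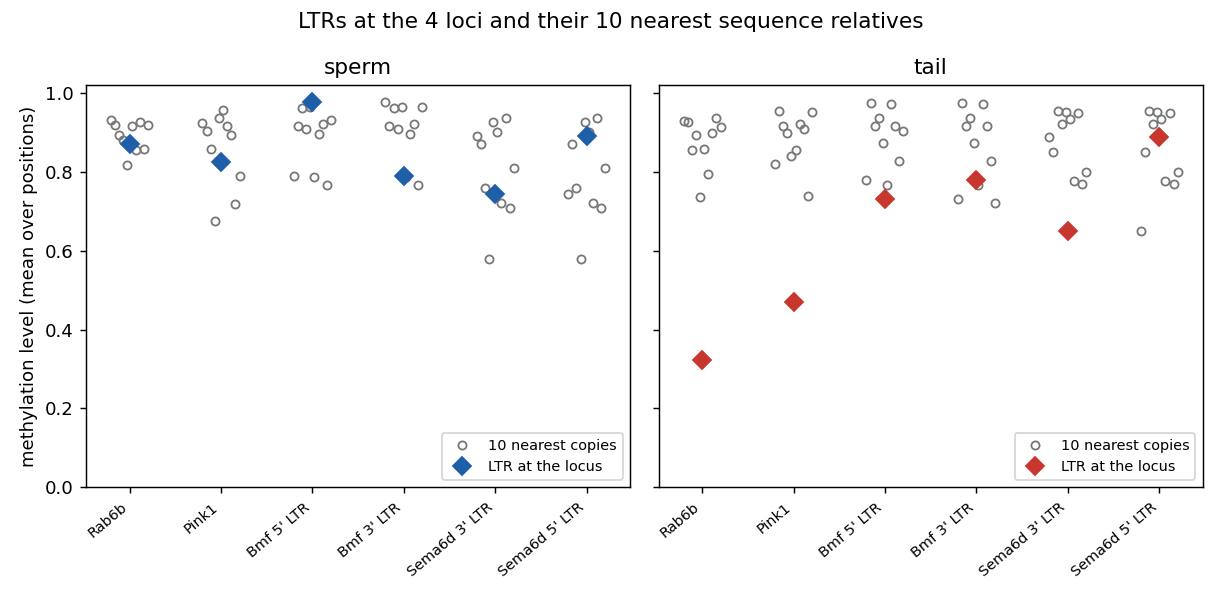
Methylation level (y axis, mean over covered positions) of the 6 LTRs (diamonds) and of the 10 genome copies most like each in sequence (open circles, nearest at the left) in sperm (left panel) and tail (right panel). In tail the Rab6b (0.324) and Pink1 (0.469) LTRs lie below all their relatives, which start at 0.735 and 0.738, while in sperm they lie among them (by summed calls, not drawn, Pink1 is at 0.834 in tail).

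Other IAPLTR2-group copies near protein-coding genes had a similar pair of levels. Likeness was the Euclidean distance between the pairs of sperm and tail levels over the 2 libraries, among LTRs of the same subfamily with at least 100 calls in both and a gene within 50 kb. Nearest to Rab6b were solo LTRs in Tmprss11d (0.905 in sperm and 0.398 in tail, distance 0.082), 3837 bp from Tsga10ip (0.752 and 0.369, distance 0.127) and 9867 bp from Ptprt (0.865 and 0.191, distance 0.133). Nearest to Pink1 was a 3′ LTR in Kcnq5 (0.896 and 0.520, distance 0.088). For the Bmf 5′ LTR the nearest was a solo LTR 40445 bp from Trpa1 (0.982 and 0.722, distance 0.010), for the Bmf 3′ LTR a 5′ LTR in Gabrb1 (0.778 and 0.776, distance 0.011), and for the Sema6d 3′ LTR a solo LTR 43015 bp from Cntnap5b (0.744 and 0.643, distance 0.007). By these levels the nearest copy was farther from Rab6b and Pink1 than from these 3 LTRs, and the Sema6d 5′ LTR, above 0.8 in both libraries, was not compared. The levels were means over all covered positions, where positions with few calls weighed fully. Over well-covered positions Rab6b was unchanged, while Pink1 stood at 0.937 in sperm and 0.704 in tail. The Bmf 5′ LTR then stood at 0.951 and 0.827, the Bmf 3′ LTR at 0.940 and 0.928 and the Sema6d 3′ LTR at 0.777 and 0.422. Likeness by those levels was not measured. In subfamily IAPLTR2, 19 of 1271 LTRs had a tail level at or under 0.5 and 2 a sperm level at or under 0.5.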

How the data were processed

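Per the labels and the study's methods, the authors treated genomic DNA with bisulfite, amplified IAP-containing products, trimmed the reads and mapped read pairs to mm10 with Bismark (version not given in the sources used here), discarding pairs with multiple hits. Since the 2 LTRs of an element are nearly identical, a pair was placed by the sequence beside the LTR. At the end of a 5′ LTR and the start of a 3′ LTR that is IAP internal sequence, itself a repeat. How reliably pairs were placed there was not tested. The deposited files give, for each CpG position and strand, a percent methylation, which was not used, and the authors' count of methylated calls beside that of unmethylated ones, from which every level was computed.

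IAP LTRs were located with blastn 2.17.0 on GRCm38, using LTR sequences of the study's own annotation, of which part was used (at least 250 bp and 80% of the query, 20 queries per subfamily). On chromosome 1 the search found 863 of 872 annotated LTRs, with the same subfamily for 97.2%. The queries were drawn in part from chromosome 1 itself, so the number found is not an independent check of the search. For the subfamily, the annotation of the LTR itself was left out. Gene models were those of GENCODE M21. An LTR or position needed at least 20 calls in each library. Each LTR and each position was compared between libraries with Fisher's exact test (two-sided, scipy 1.17.1) and Benjamini-Hochberg adjustment over all LTRs or positions, and a call required adjusted p under 0.05 and a difference of at least 0.2. For LTRs the test was run on summed calls, while the difference was that of the means over positions. The procedure was checked on simulated data first. Its calls were drawn independently, so the check does not cover PCR copies or CpGs that share a read. Shares have exact (Clopper-Pearson) 95% intervals. Identity between LTRs came from a global alignment in Biopython. Python 3.11.15, numpy 2.4.6 and pandas 2.3.3 were used.

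All 4 loci, every LTR in them and every position with at least 20 calls in both libraries were described, with the 10 nearest relatives of each LTR (up to 3 named) and up to 3 named LTRs of like levels near genes. The loci came from the literature on genes with variable IAP LTRs and are not a random set of LTRs. Earlier results were known when the loci were chosen, and earlier results of these data when the lists and tests were. Alternatives were other call minimums (10, 50 and 100), positions with at least 5 calls, summed calls, merged strands, LTRs shortened by 20 bp, differences of 0.1 and 0.3, and flanks of 500 bp.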

Additional observations from a re-analysis of the deposited data

How the results depend on the processing

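For the difference of whole LTRs and the counts of calls, 78 alternative values stayed on the same side of the threshold or within 1.5 times the count. In 3 of them an uncalled difference changed sign, the Bmf 3′ LTR to -0.007 with summed calls, and the Sema6d 3′ LTR to -0.038 and 5′ LTR to -0.015 with LTRs shortened by 20 bp. The Bmf 5′ LTR difference (0.246) lost its call with a minimum difference of 0.3, with summed calls (0.076), when only positions of at least 5 calls entered (0.167) and when only those of at least 20 calls in both libraries did (0.125). Pink1 lost its call with summed calls (0.096). The Sema6d 3′ LTR gained one with summed calls (0.431), positions of at least 5 calls (0.292) and positions of at least 20 calls in both (0.355). A minimum difference of 0.1 raised the positions lower in sperm from 9 to 15. With summed calls, 2 LTRs in place of 4 lay in the lowest 5% of their subfamily in tail, and 3 did with positions of at least 20 calls in both. The last setting was chosen after seeing the data.

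For single parts of the loci, 14 of 84 alternative values changed sign, where positions with few calls left the mean or weighed less. Of these, 8 belong to differences under 0.2, in the Bmf internal sequence, the Bmf downstream flank and the Sema6d upstream flank. The Pink1 upstream flank went from 0.373 (sperm minus tail) to -0.082 with summed calls, -0.201 with positions of at least 5 calls and -0.065 with at least 20 in both. The end of the Pink1 LTR went from -0.239 to 0.070, 0.071 and 0.071, and the start of the Sema6d 3′ LTR from -0.214 to 0.000 with at least 20 in both. The Pink1 values were lowered in the plain mean by positions with 0 methylated of 1 or 2 calls.

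No paired analysis was possible because each tissue has 1 library. Depth is a limit in the flanks, where a library had as few as 23 calls at a tested position, and in tail at the end of the Sema6d 3′ LTR (25 to 81 calls per position) and in the Sema6d internal sequence (as few as 25).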
